A study of Homo sapiens with 32 samples.

Results

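The genes described here are 10 transcripts that report on the ERK branch of MAPK signalling, namely DUSP1, DUSP4, DUSP5, DUSP6, SPRY2, SPRY4, SPRED1, FOSL1, EGR1 and ETV5. They were taken from the tables by symbol and protein-coding class, and are 10 of the 19815 protein-coding genes among 60554 annotated genes counted by RNA-Seq. All 10 passed the filter on low counts in both cell lines, with between 154 counts (EGR1) and 73594 counts (DUSP1) in a library.

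RNA of 2 kinds was sequenced, all cellular mRNA (total, T) and the mRNA carried by translating ribosomes and separated on a sucrose gradient (polysomal, P), from MCF10A and MDA-MB-231 cells. Cells were kept in normoxia (N), in hypoxia at 0.5% O2 for 24 hours (H), in normoxia with PP242 at 2.5 µM for 3 hours (NPP), or in hypoxia with PP242 (HPP). PP242 is an inhibitor of the mTOR kinase that acts on both mTOR complexes. Each of the 8 groups per line had 2 biological replicates, which gave 32 libraries of 18340916 to 46032327 counts. MCF10A is an immortalised, non-tumourigenic mammary epithelial line, and was grown in DMEM with 10% FBS, 20 ng/mL EGF, hydrocortisone, cholera toxin and insulin. MDA-MB-231 is a triple-negative breast carcinoma line and was grown in DMEM with 10% FBS and no added EGF. The cell line is therefore confounded with the medium and with the count table, and these cannot be told apart. PP242 was dissolved in DMSO, and control cells were given an equal amount of the solvent according to the methods. The T and P library of a replicate share a title number and were taken as 1 culture, which the labels do not state in words, so a change seen in both fractions is not counted as seen in separate cultures.

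ERK is activated by growth factor receptors through RAS, RAF and MEK, and immediate early genes such as EGR1 are transcribed within minutes of its activation. Several ERK target genes encode inhibitors of the same pathway. The dual-specificity phosphatases (DUSP) remove the activating phosphates from MAP kinases, whereas the Sprouty and SPRED proteins act upstream, at the level of RAS and RAF. Their mRNA levels are often read as a record of recent ERK output. mTOR complexes and ERK are also linked by feedback through growth factor receptors and their adaptors.

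The cell lines were checked against markers before the 10 genes were examined. The basal keratins KRT5 and KRT14 were at 1190 to 3268 and 458 to 4203 CPM (counts scaled to library size, with TMM factors set within a line) in MCF10A, and at most at 0.284 and 0.610 CPM in MDA-MB-231. TP63, CDH1 and EPCAM, which are also epithelial markers, were at or near 0 in MCF10A (at most 0.226, 0.361 and 0.461 CPM), whereas EPCAM was at 9.86 to 19.1 CPM in MDA-MB-231. The mesenchymal markers did not separate the lines in 1 direction. AXL was at 700 to 1053 CPM in MDA-MB-231 and 225 to 401 in MCF10A, VIM was at 3113 to 6082 and 1691 to 9370, and FN1 was lower in MDA-MB-231, at 76.96 to 283.1 against 1057 to 8617. ZEB1 was at 43.6 to 88.2 CPM in MDA-MB-231 and 4.69 to 32.6 in MCF10A. SPARC and CDH2 were near 0 in MDA-MB-231 (at most 0.796 and 1.53 CPM) and expressed in MCF10A. The receptor genes ESR1 and PGR stayed at or below 0.625 CPM in both lines. CA9 and NDRG1, a pair of hypoxia-induced genes, rose in H in total mRNA of both lines (CA9 log2FC 5.95 ± 0.48 (SE) in MCF10A, 5.46 ± 0.67 in MDA-MB-231), as the labels of the H libraries require.

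Some libraries stood apart. The second MCF10A NPP total library had 40.42% of its counts in its 100 most abundant genes, against 30.02% in the first, and the second HPP total library had 41.22% against 32.49%. The SD across genes of the log2 difference between replicates was 1.19 for MCF10A NPP total mRNA and 0.886 for HPP total mRNA, against 0.396 for N total mRNA. In MDA-MB-231 it ran from 0.367 to 0.521 over the 8 groups. The NPP calls of the 10 genes in MCF10A are therefore given with and without the second replicate, and other NPP results include it.

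Promoter sequence from RefSeq (GRCh38.p14) was held for 6 of the 10 genes, at 8 start sites, as 250 bases before and 50 bases after each start. The windows below are shown because they hold the only matches to the CArG box, the site bound by serum response factor, and to the cAMP response element (CRE, TGACGTCA) among these promoters, and capitals mark those matches. The EGR1 window spans chr5:138465359-138465418 on the plus strand, 120 to 61 bases before the start, and holds a pair of CArG boxes. The DUSP1 window spans chr5:172771286-172771345 on the minus strand, 150 to 91 bases before the start, and holds a CRE.
EGR1: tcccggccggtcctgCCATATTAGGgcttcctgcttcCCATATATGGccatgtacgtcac
DUSP1: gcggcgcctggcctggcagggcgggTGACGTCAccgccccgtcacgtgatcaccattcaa
A CArG box, searched on both strands, was present in 1.29% of all 35116 promoters of that length, and the CRE in 1.85%. The AP-1 site (TGANTCA, in 7.71% of promoters) and an ETS site (CCGGAAGT, in 4.14%) were found in none of the 8 windows. The HIF core ACGTG, present in 21.4% of promoters, was found in those of EGR1 and DUSP1. In DUSP1 it lies within the printed window on both strands and does not overlap the CRE. A match describes the letters of the window and no binding was measured.

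In normoxia the phosphatases, Sprouty genes and transcription factors differed widely in level, and the order was not the same in the 2 lines. Levels are given here in joint CPM (all 32 libraries scaled together) per kilobase of exon, in total mRNA of N. In MCF10A, DUSP1 was the most abundant at 279 and 309, followed by FOSL1, which encodes the AP-1 subunit FRA-1, at 81.9 and 92.6. EGR1, a zinc finger transcription factor, was at 13.5 and 16.3, and DUSP4 at 10.6 and 10.97. DUSP5, ETV5, SPRED1, SPRY2 and SPRY4 lay between 4.64 and 8.15, where the ranges of SPRED1 and SPRY2 and those of SPRY2 and SPRY4 overlapped. DUSP6 was the lowest at 2.48 and 2.55, apart from all others.
In MDA-MB-231, FOSL1 was the most abundant at 226 and 263. DUSP4, at 44.8 and 62.3, and DUSP6, at 47.1 and 59.3, came next and overlapped. SPRY2 (30.1 and 40.7), DUSP5 (21.5 and 35.3) and DUSP1 (12.4 and 37.4) overlapped as well, with a gap of about 3-fold between the 2 replicates of DUSP1. SPRY4 (13.6 and 15.2) and ETV5 (10.8 and 12.6) also lay within or overlapped the range of DUSP1, and EGR1 and SPRED1, which overlapped each other, were the lowest at 5.53 to 7.66.

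**Figure D1:**
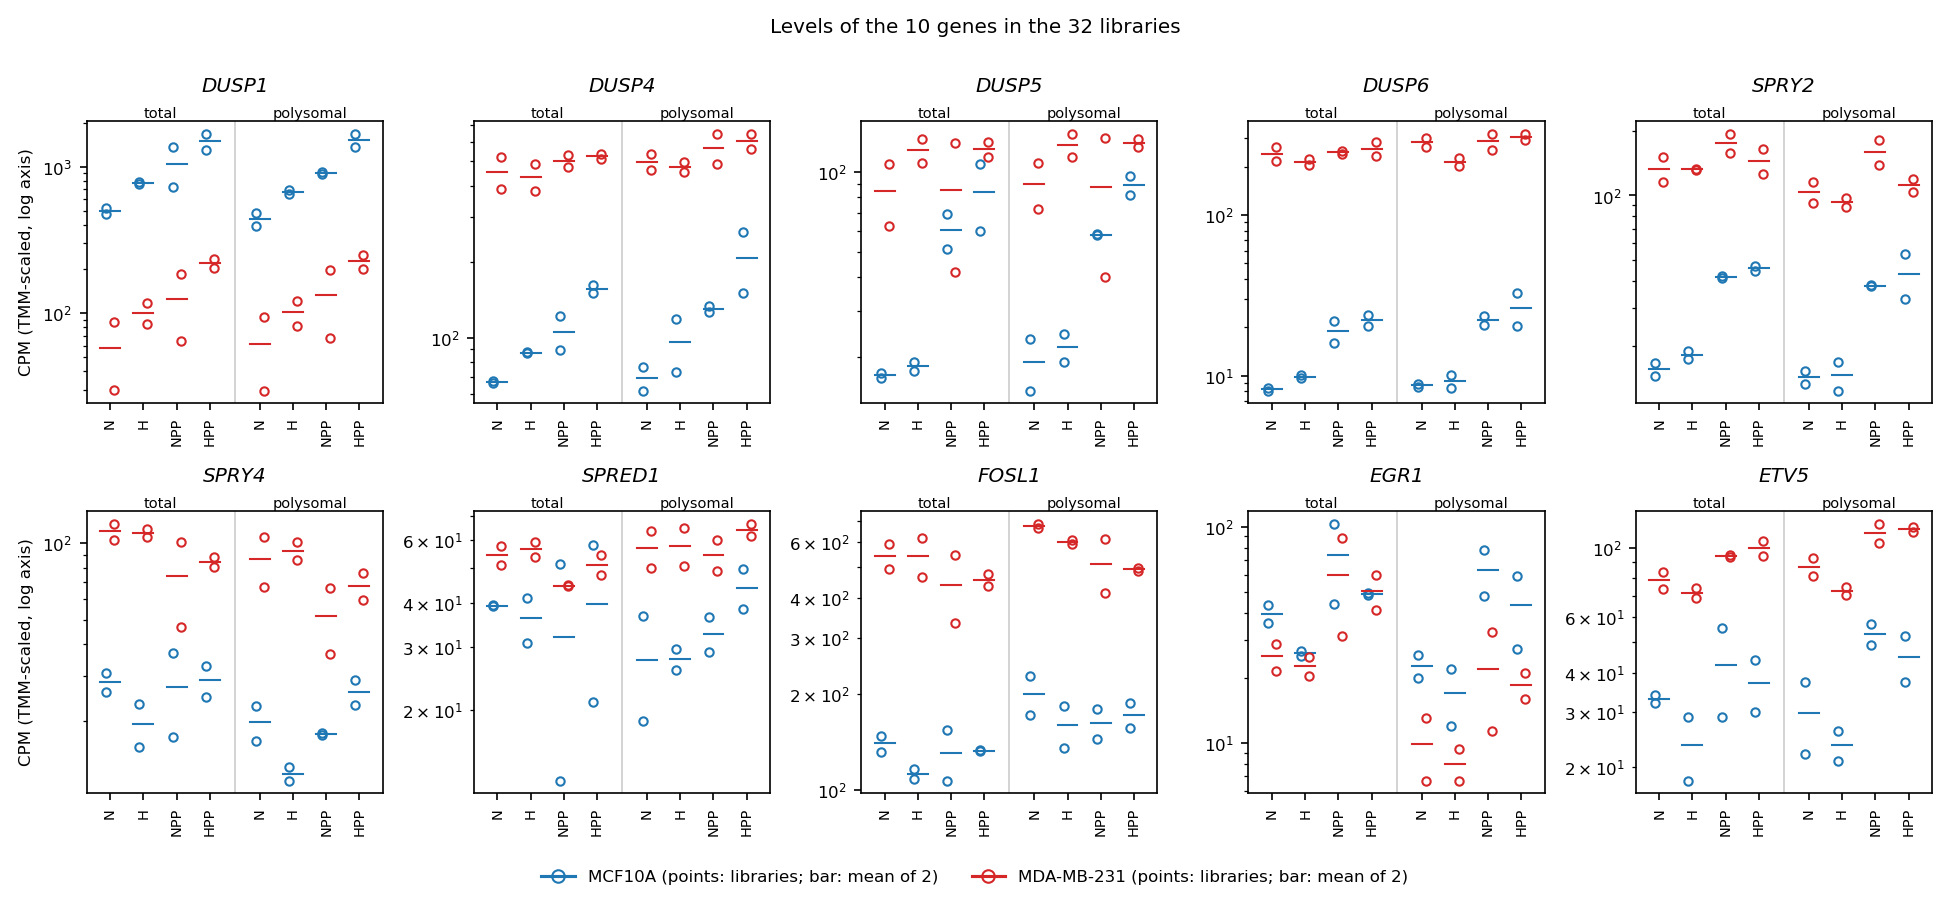
Level of each of the 10 genes in CPM (log axis, TMM-scaled within each line) in the N, H, NPP and HPP groups, total mRNA on the left and polysomal mRNA on the right of each panel. Points are the 2 libraries of a group and bars their mean, and in MCF10A the DUSP5, DUSP6 and SPRY2 points of NPP and HPP lie above those of N and H.

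The question put to the PP242 groups is which mRNAs change when mTOR is inhibited, with or without hypoxia. In MCF10A, PP242 alone raised DUSP5 and SPRY2 in both fractions and DUSP6 in polysomal mRNA, while the other phosphatase, Sprouty and SPRED genes did not pass in this fit. DUSP5 (ENSG00000138166.5, chr10:110497907-110511533), a nuclear phosphatase specific for ERK, was at 16.7 and 17.5 CPM in N, 17.8 and 19.3 in H, 51.2 and 69.2 in NPP, and 60.0 and 107.1 in HPP in total mRNA. The NPP and HPP libraries were all above the N and H libraries, and the HPP replicates differed more from each other than the others did. Its log2FC in NPP was 1.81 ± 0.32 (SE), a 3.52-fold rise (edgeR adjusted p = 0.032). SPRY2 (ENSG00000136158.10, chr13:80335976-80341126), a Sprouty inhibitor of receptor tyrosine kinase signalling, was at 14.5 and 16.6 CPM in N, 19.01 and 17.4 in H, 41.2 and 42.2 in NPP, and 47.2 and 44.6 in HPP. It had the same order of groups with little spread, and its log2FC in NPP was 1.42 ± 0.26 (2.68-fold, edgeR adjusted p = 0.037). DUSP6 (ENSG00000139318.7, chr12:89347235-89352501), the cytoplasmic ERK phosphatase, was at 8.38 and 8.09 CPM in N, 10.1 and 9.61 in H, 21.9 and 16.04 in NPP, and 20.4 and 24.0 in HPP. The NPP change of DUSP6 in total mRNA did not pass the test (log2FC 1.202 ± 0.27, edgeR adjusted p = 0.089), but it did with the replicate number as a block within each fraction (adjusted p = 0.0423) and with DESeq2 (adjusted p = 0.0025).
So 2 of the 10 genes rose in NPP total mRNA and 0 fell, where 0.343% of 13124 tested genes rose. Their median log2FC was 0.78, against 0.02 over all tested genes, and 5 of the 10 had an unadjusted p under 0.05. In polysomal mRNA 3 of 10 rose, where 0.472% of tested genes did, namely DUSP5 (log2FC 1.60 ± 0.31, edgeR adjusted p = 0.040), DUSP6 (1.34 ± 0.27, adjusted p = 0.047) and SPRY2 (1.42 ± 0.26, adjusted p = 0.029). These calls were close to the threshold: without the second NPP replicate 0 genes were called in either fraction, and each call was lost on leaving out any of 10 to 12 of the 16 libraries, while log2FC stayed between 1.25 and 2.01. In P the plain replicate block left 1 of the 3 calls, losing DUSP5 (adjusted p = 0.0518) and DUSP6 (adjusted p = 0.0540). Median-ratio factors lost the same 2 calls, and that of DUSP6 was also lost with no filter beyond 1 read and with all gene classes. Other settings gained calls. DUSP1 passed with DESeq2 in T (adjusted p = 0.0254) and P (adjusted p = 0.0298), and with the block within each fraction DUSP1 (adjusted p = 0.0335) and DUSP4 (adjusted p = 0.0459) passed in P, which made 5 of 10, although the replicate numbers paired only 3 of 6 pairs of polysomal groups (correlation of deviations over 0.1). The shares of tested genes above are from the main fit, and none is given for these settings.

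**Figure D2:**
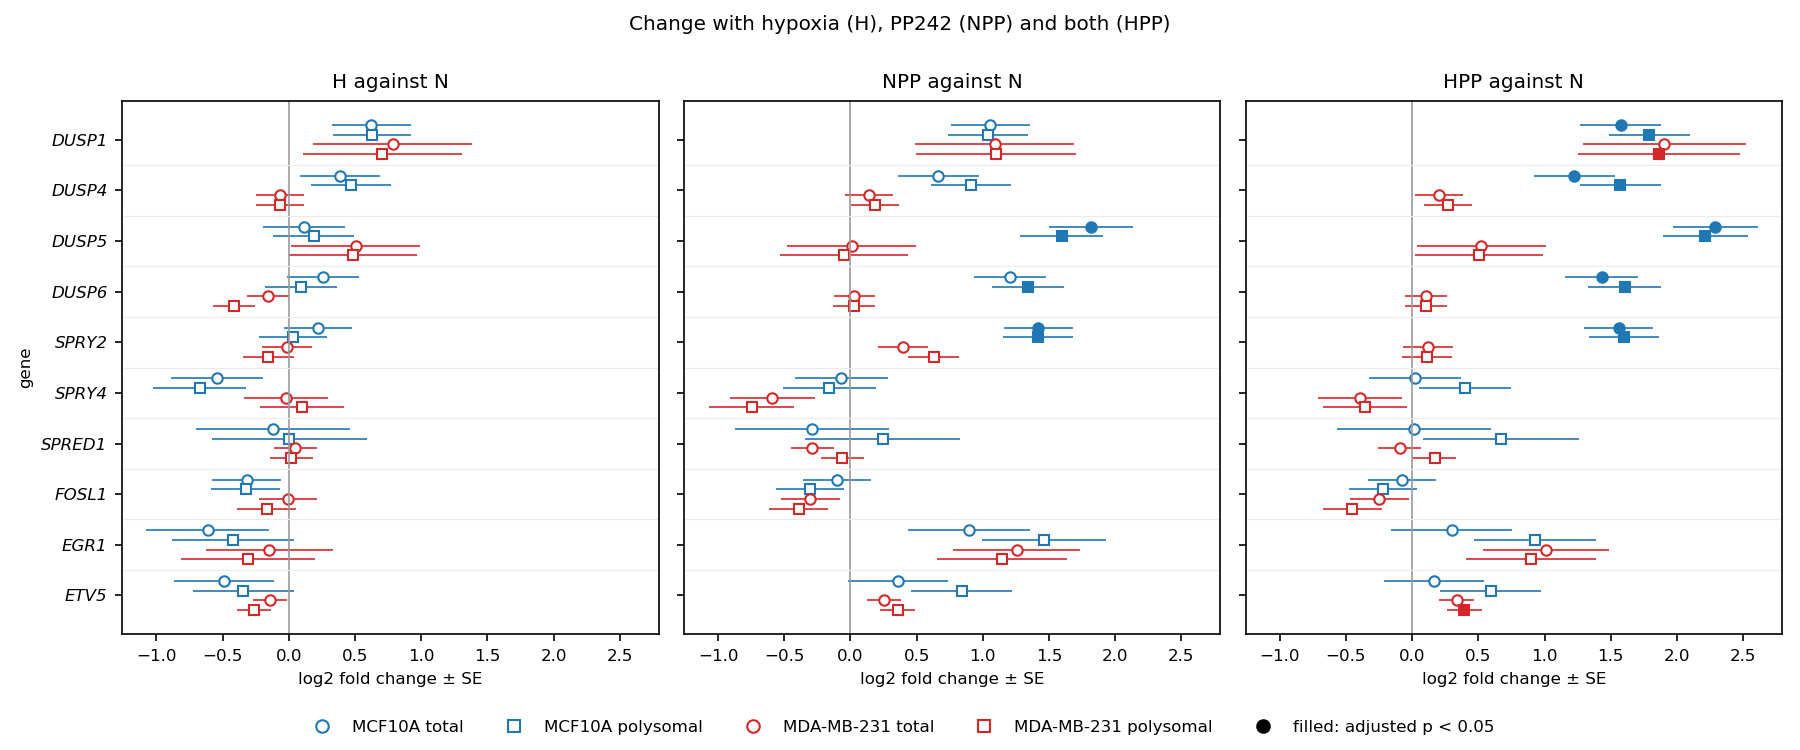
Change of each gene (log2FC ± SE, horizontal axis) in H, NPP and HPP against N, with circles for total and squares for polysomal mRNA, and filled symbols for an adjusted p under 0.05. Filled symbols are mostly MCF10A phosphatases and SPRY2 in HPP, and the H panel has none.

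Under hypoxia combined with PP242 the response in MCF10A covered all 4 phosphatases and SPRY2. In total mRNA 5 of the 10 genes rose and 0 fell, where 7.43% of tested genes rose. DUSP1 (ENSG00000120129.5, chr5:172768096-172771195), an inducible nuclear phosphatase that also acts on p38 and JNK, was at 478 and 526 CPM in N, 760.5 and 785.7 in H, 732 and 1355 in NPP, and 1303 and 1685 in HPP. HPP was above N and H in both replicates and overlapped the widely spread NPP pair, and the log2FC over N was 1.57 ± 0.30 (2.98-fold, edgeR adjusted p = 0.0056). DUSP4 (ENSG00000120875.8), a nuclear phosphatase induced by ERK, was at 66.0 and 67.5 CPM in N, 87.3 and 87.5 in H, 122 and 89.8 in NPP, and 162 and 150 in HPP, where it was above every other group (log2FC over N 1.23 ± 0.31, edgeR adjusted p = 0.020).
DUSP5 rose 4.88-fold in HPP (log2FC 2.29 ± 0.32, edgeR adjusted p = 0.0011), SPRY2 2.95-fold (1.56 ± 0.26, adjusted p = 0.0026) and DUSP6 2.70-fold (1.43 ± 0.27, adjusted p = 0.0053). The calls of DUSP5 and SPRY2 held with each of the 16 libraries left out in turn. Those of DUSP1, DUSP4 and DUSP6 were lost in 3, 4 and 2 of these fits, with adjusted p of up to 0.0664, 0.134 and 0.0650, so that 2 of the 5 calls were left without either N total library.
The remaining 5 genes had log2FC near 0 in HPP total mRNA. SPRY4 (ENSG00000187678.8, chr5:142310427-142326455), a second Sprouty gene, was at 25.9 and 30.9 CPM in N and 32.8 and 24.8 in HPP. SPRED1 (ENSG00000166068.12, chr15:38252836-38357249), which recruits neurofibromin to RAS, was at 39.1 and 39.3 CPM in N and 58.2 and 21.1 in HPP, so that the HPP replicates lay on either side of N. FOSL1 (ENSG00000175592.8, chr11:65892049-65900573) was at 132 and 148 CPM in N and 132 and 133 in HPP. EGR1 (ENSG00000120738.7, chr5:138465479-138469303) was at 43.5 and 35.8 CPM in N and 49.2 and 48.2 in HPP, and ETV5 (ENSG00000244405.7, chr3:186046314-186110318), an ETS factor of the PEA3 group, at 31.96 and 33.8 in N and 43.9 and 29.9 in HPP. Their log2FC ran from -0.07 (FOSL1) to 0.30 (EGR1), with SE of 0.26 to 0.58, and their edgeR adjusted p were 0.73 or higher.

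In polysomal mRNA of MCF10A the 4 phosphatases and SPRY2 rose in HPP, 5 of 10 genes, where 10.2% of tested genes rose. DUSP5 was at 23.4 and 15.0 CPM in N and 81.5 and 96.2 in HPP (log2FC 2.21 ± 0.32, edgeR adjusted p = 9.3e-04). DUSP1 went from 393 and 482 to 1364 and 1660 CPM (log2FC 1.79 ± 0.31, adjusted p = 0.0023) and DUSP6 from 8.49 and 8.92 to 20.3 and 32.7 (1.61 ± 0.27, adjusted p = 0.0023). SPRY2 went from 15.3 and 13.2 to 53.3 and 33.1 CPM (1.60 ± 0.26, adjusted p = 0.0020) and DUSP4 from 61.8 and 76.9 to 151 and 262 (1.57 ± 0.31, adjusted p = 0.0047). The DUSP4 call was lost in 2 of 16 fits with 1 library left out, with an edgeR adjusted p of up to 0.0562 without the second HPP polysomal library, and the other 4 calls held with each library left out. The median log2FC of the 10 genes was 1.25, against -0.04 over all tested genes. The other 5 genes did not pass. EGR1 had a log2FC of 0.93 ± 0.46 (edgeR adjusted p = 0.17), ETV5 of 0.59 ± 0.38 (adjusted p = 0.28), SPRED1 of 0.67 ± 0.59 (adjusted p = 0.44) and SPRY4 of 0.40 ± 0.35 (adjusted p = 0.45). FOSL1 was at 228 and 171 CPM in N and 187 and 156 in HPP, and its log2FC was -0.22 ± 0.26 (edgeR adjusted p = 0.57).

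Markers of the epithelial and of the mesenchymal state moved in the HPP groups as well. In HPP total mRNA of MCF10A, where 7.43% of tested genes rose, 4 of the 6 tested epithelial markers did (KRT6A, KRT14, KRT17 and ITGB4), and the summed level of the list was 2876 and 1909 CPM in N, 4294 and 5537 in H, 2766 and 4149 in NPP, and 5539 and 8754 in HPP. The most abundant gene of the list was KRT5 in N and NPP and KRT14 in H and HPP. In HPP polysomal mRNA 4 of the 6 tested epithelial markers rose, where 10.2% of tested genes did. In H 2 of the 6 rose in T and 1 in P, where 1.54% and 1.49% of tested genes were called. Of the 6 mesenchymal markers VIM and FN1 rose in HPP total mRNA and FN1 in polysomal mRNA, where 10.2% of tested genes rose, and the summed level of that list in total mRNA was 4865 and 4686 CPM in N, 8693 and 7268 in H, 7635 and 9625 in NPP, and 13780 and 14973 in HPP, with FN1 the most abundant gene in each first library and VIM in each second. Of 6 stromal and immune markers 4 were tested and 3 rose in HPP total mRNA (CD68, COL1A1 and PECAM1), with a summed level of 44.8 and 50.1 CPM in N and 108.9 and 161 in HPP, most of it CD68. In polysomal mRNA 2 of the 4 rose in HPP, and in H 1 of the 4 rose in each fraction. The leukocyte genes PTPRC and CD3E were at most at 0.101 CPM and at 0 in MCF10A. In HPP of MDA-MB-231, ITGB4 rose in both fractions (21.6 and 14.7 CPM in N and 49.3 and 55.9 in HPP total mRNA, log2FC 1.53 ± 0.42, edgeR adjusted p = 0.028), 1 of 6 tested epithelial markers, where 13.2% of tested genes were called in T, and EPCAM fell in P (-0.57 ± 0.18), where 9.71% of tested genes rose and 9.73% fell. Of 6 mesenchymal markers FN1 rose in both fractions (1.29 ± 0.25 in T and 1.56 ± 0.25 in P) and VIM in T (0.75 ± 0.15), and the summed level of that list was 4104 and 4663 CPM in N and 6443 and 7488 in HPP total mRNA, most of it VIM. Of the 5 tested stromal and immune markers CD68 fell in P (-0.47 ± 0.13). The part of these markers in the changes of the 10 genes in either line was not tested. In bulk RNA, fewer cells of a kind and less mRNA per cell cannot be told apart.

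Hypoxia alone moved none of the 10 genes past the test in MCF10A. In H total mRNA 0 of 10 were called by edgeR, where 1.54% of tested genes were called, and 0 had an unadjusted p under 0.05, while DESeq2 also called 0. In polysomal mRNA the counts were again 0 called and 0 under 0.05, where 1.49% were called, and DESeq2 called 0. DUSP1 had the largest rise, with a log2FC of 0.62 ± 0.30 in T (edgeR adjusted p = 0.49) and 0.63 ± 0.30 in P. Both H total libraries were above both N libraries for 5 genes (the 4 phosphatases and SPRY2), as they were for 23.6% of tested genes, and below for 4 (SPRY4, FOSL1, EGR1 and ETV5), as for 26.8%. In polysomal mRNA of the same cultures this held for 1 gene above (DUSP1), where 17.2% of tested genes were, and 1 below (SPRY4), where 20.2% were, and the other 8 overlapped. EGR1 was at 25.2 and 26.6 CPM in H against 43.5 and 35.8 in N (log2FC -0.61 ± 0.46, edgeR adjusted p = 0.80).

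Setting HPP against H and against NPP separates what PP242 added in hypoxic cells from what hypoxia added in PP242-treated cells. These comparisons share libraries with those against N. In MCF10A total mRNA, PP242 raised 3 of 10 genes in hypoxic cells, where 1.33% of tested genes rose, namely DUSP5 (log2FC 2.17 ± 0.32, edgeR adjusted p = 0.0041), SPRY2 (1.34 ± 0.26, adjusted p = 0.016) and DUSP6 (1.17 ± 0.27, adjusted p = 0.036). In polysomal mRNA it raised 4, where 2.63% rose, with DUSP1 added to those 3 (1.16 ± 0.30, adjusted p = 0.042) and DUSP4 just outside (1.102 ± 0.30, adjusted p = 0.054). In T, DUSP1 passed with the replicate block within each fraction (adjusted p = 0.0369). In P the count went from 4 to 7 with DESeq2, which added DUSP4, SPRY4 and EGR1, and to 7 with the block within each fraction, which added DUSP4, SPRY4 and ETV5. The share of 2.63% is from the main fit, and none is given for these 2 settings. The DUSP1 call in P was lost with no filter beyond 1 read, with median-ratio factors and with all gene classes (adjusted p of up to 0.0827), and it was lost in 13 of 16 fits with 1 library left out, that of DUSP6 in T in 10 (and with no filter or all gene classes, adjusted p = 0.0739 and 0.0590) and those of DUSP5 and SPRY2 in T in 3 and 4, and without either H total library or the second HPP one 0 calls were left in T. In P 2 calls were left without either H polysomal library or the second HPP one. Hypoxia in the presence of PP242 gave log2FC between -0.60 and 0.56 in T and between -0.53 and 0.75 in P. edgeR called 0 of 10 genes there, with 0 and 1 under an unadjusted p of 0.05, where 4.17% and 7.44% of tested genes were called, and DESeq2 called 0 in either fraction.

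**Figure D3:**
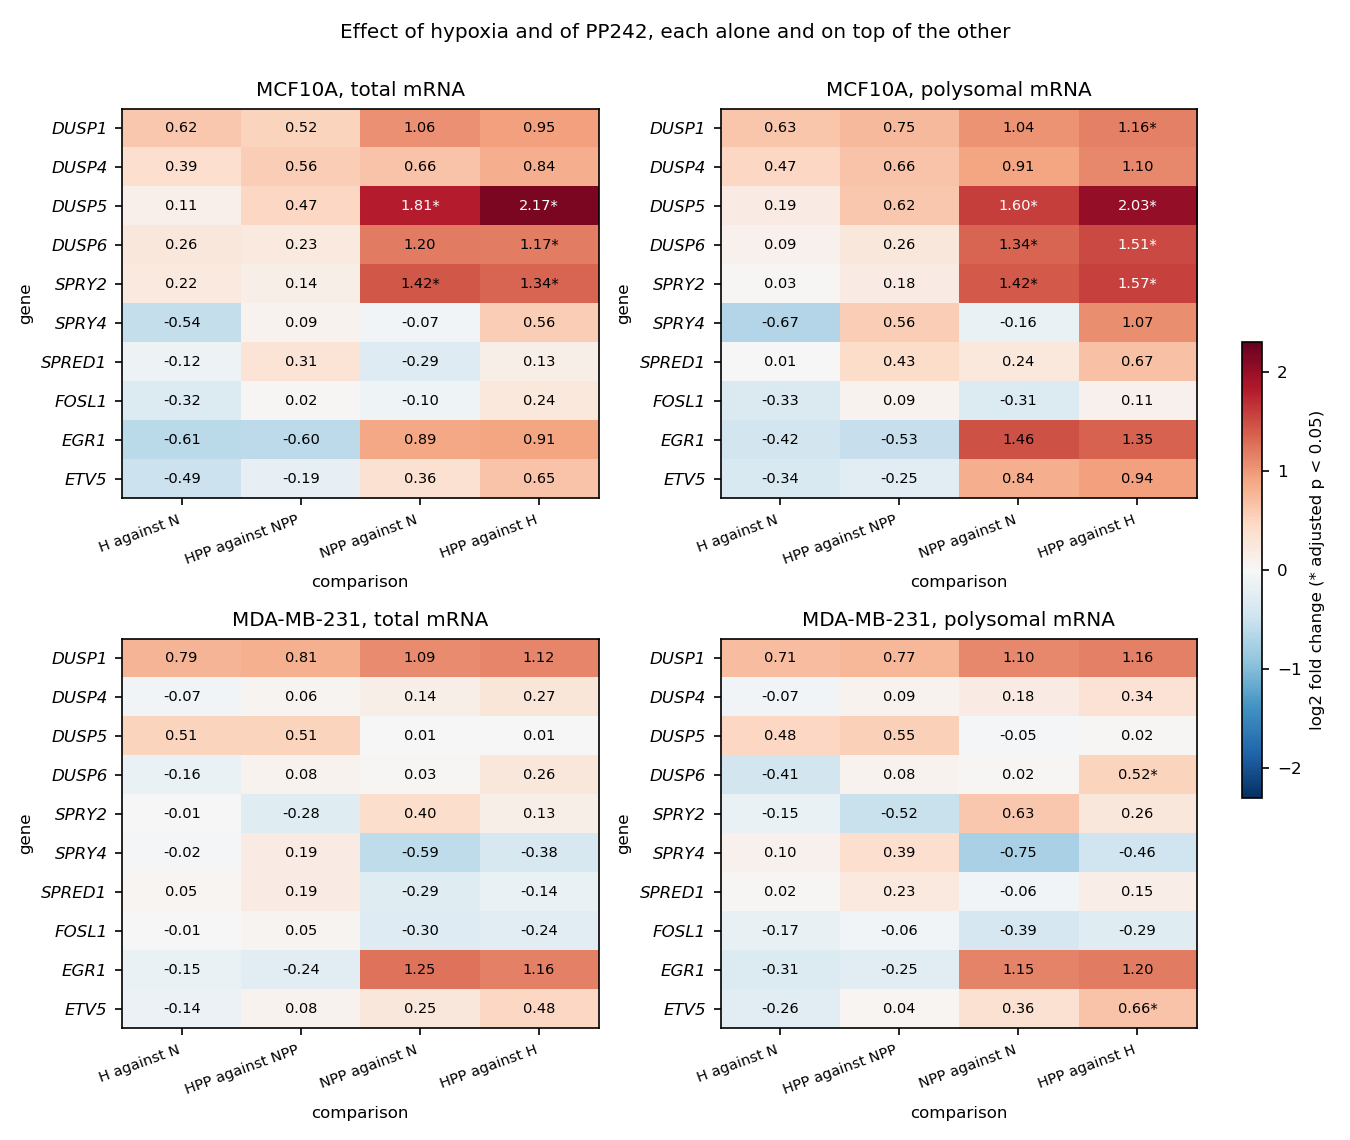
log2FC of each gene (rows) for hypoxia without and with PP242 and for PP242 without and with hypoxia (columns), by line and fraction, with red for higher, blue for lower and a star for an adjusted p under 0.05. Stars stand only in the 2 PP242 columns, mostly at DUSP5, DUSP6 and SPRY2 of MCF10A.

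In MDA-MB-231 few of these genes were called, and the number depended on the filter on low counts. In H, edgeR called 0 of 10 in T, where 1.27% of 13510 tested genes were called, and 0 in P, where 2.29% were, with 0 and 1 under an unadjusted p of 0.05 and 0 by DESeq2 in both. In NPP it called 0 in T, where 0.555% were called, and 0 in P, where 1.95% were, with 1 and 4 under an unadjusted p of 0.05 and again 0 by DESeq2. EGR1 was at 21.5 and 28.7 CPM in N and 31.1 and 88.5 in NPP total mRNA, and its log2FC of 1.25 ± 0.48 did not pass (edgeR adjusted p = 0.35). SPRY2 in NPP polysomal mRNA passed with the replicate block (log2FC 0.63, adjusted p = 0.0283) and with the block within each fraction (adjusted p = 0.0290). With no filter beyond 1 read, DUSP1 passed in H in both fractions (adjusted p = 0.0311 in T and 0.0464 in P). DUSP1 and EGR1 then passed in NPP in both fractions (EGR1 in T with a log2FC of 1.29 and adjusted p = 1.1e-05), and SPRY2 and SPRY4 in P. The log2FC of EGR1 was thus close to the 1.25 of the main fit. The share of all genes called without the filter is not given, so these calls cannot be set beside it and are not read as responses of these genes. DUSP6 stayed between 206 and 284 CPM over the 8 total libraries, and its log2FC in NPP was 0.03 ± 0.16.

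In HPP total mRNA of MDA-MB-231 edgeR called 0 of 10 genes, where 13.2% of tested genes were called, with 2 under an unadjusted p of 0.05 and 1 called by DESeq2. DUSP1 was at 86.6 and 29.7 CPM in N, 116.9 and 84.5 in H, 184 and 65.0 in NPP, and 202 and 235 in HPP. The HPP libraries were above all others, but the N pair differed by almost 3-fold, and the log2FC of 1.90 ± 0.61 had an edgeR adjusted p of 0.055. With the replicate block it passed (log2FC 2.14, adjusted p = 0.0046), as it did with the block within each fraction (adjusted p = 0.0079), although the replicate numbers did not pair the MDA-MB-231 libraries throughout. With no filter beyond 1 read DUSP1, DUSP5 and EGR1 passed in T and DUSP5 and EGR1 were gained in P, and with only the libraries compared DUSP1 (adjusted p = 0.0135) and EGR1 (adjusted p = 0.0127) passed in T. No share over all genes is given for these 2 settings. FOSL1 was at 492 and 593 CPM in N and 477 and 436 in HPP (log2FC -0.25 ± 0.22, edgeR adjusted p = 0.50). In polysomal mRNA 2 genes rose, where 9.71% of tested genes rose. DUSP1 went from 94.5 and 29.7 to 201 and 250 CPM (log2FC 1.87 ± 0.61, edgeR adjusted p = 0.045). This call was lost in 9 of 16 fits with 1 library left out, over which log2FC ran from 1.26 (without the second N polysomal library) to 3.00 (without the first). It was also lost with DESeq2 (adjusted p = 0.061) and with median-ratio factors. ETV5 went from 81.5 and 92.9 to 117 and 113 CPM, a 1.31-fold rise (log2FC 0.39 ± 0.13, adjusted p = 0.046), lost in 8 of 16 such fits, with median-ratio factors (adjusted p = 0.0627) and with only the libraries compared (adjusted p = 0.0666). FOSL1 went from 662 and 686 to 488 and 497 CPM (-0.45 ± 0.22, edgeR adjusted p = 0.17), and passed where only the libraries compared were fitted (adjusted p = 0.0268).
Against H, HPP raised DUSP6 (225 and 201 to 317 and 293 CPM, log2FC 0.52 ± 0.16, edgeR adjusted p = 0.046) and ETV5 (70.7 and 74.8 to 117 and 113 CPM, 0.66 ± 0.13, adjusted p = 0.0058) in polysomal mRNA, where 4.86% of tested genes rose. The DUSP6 call was lost in 9 of 16 fits with 1 library left out and that of ETV5 in 1, without the first HPP polysomal library (adjusted p = 0.0684). In total mRNA edgeR called 0 genes against H, where 3.78% were called, with 2 under an unadjusted p of 0.05, and DESeq2 called 1 (ETV5, log2FC 0.49), which also passed with the replicate block (adjusted p = 0.0401) and with the block within each fraction (adjusted p = 0.0322). Against NPP it called 0 of 10 in T and in P, where 2.72% and 3.55% of tested genes were called, with 0 and 1 under an unadjusted p of 0.05 and 0 by DESeq2 in both. SPRY2 in P fell with the replicate block (log2FC -0.51, adjusted p = 0.0465) and with the block within each fraction (adjusted p = 0.0456).

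In normoxia most of the 10 genes were higher in MDA-MB-231 than in MCF10A. In total mRNA 7 were higher, where 20.3% of 14298 tested genes were, and 1 was lower, where 20.5% were. DUSP6 was at 9.84 and 9.56 joint CPM in MCF10A, against 229 and 182 in MDA-MB-231, a 21.2-fold difference (log2FC 4.40 ± 0.26, edgeR adjusted p = 4.6e-11). SPRY2 was 6.19-fold higher (2.63 ± 0.23, adjusted p = 1.0e-08), DUSP4 4.95-fold (2.31 ± 0.29, adjusted p = 1.2e-06), DUSP5 3.57-fold (1.83 ± 0.47, adjusted p = 0.0033), SPRY4 2.82-fold (1.50 ± 0.36, adjusted p = 0.0019), FOSL1 2.81-fold (1.49 ± 0.24, adjusted p = 4.1e-05) and ETV5 1.74-fold (0.80 ± 0.29, adjusted p = 0.030).
DUSP1 went the other way. It was at 561 and 621 joint CPM in MCF10A against 24.9 and 75.2 in MDA-MB-231 (log2FC -3.56 ± 0.61, edgeR adjusted p = 6.7e-05). This log2FC was -4.59 without the first MDA-MB-231 N total library and -2.97 without the second. EGR1 was lower by a log2FC of -1.13 ± 0.53 without passing (edgeR adjusted p = 0.095), and SPRED1 had a log2FC of 0.01 ± 0.44. With each of the 32 libraries left out in turn the calls held except that of ETV5, which was lost in 4 fits, with an adjusted p of up to 0.164 without the first MDA-MB-231 N total library. The ETV5 call was also lost with the replicate block (log2FC 0.78, edgeR adjusted p = 0.0582).
In polysomal mRNA 7 genes were higher, where 22.7% were, and 2 lower, where 22.6% were. DUSP6 was 26.2-fold higher (log2FC 4.71 ± 0.26, edgeR adjusted p = 1.9e-11), and the other 6 had log2FC from 1.23 (ETV5) to 2.54 (SPRY2). DUSP1 (log2FC -3.13 ± 0.60, adjusted p = 2.0e-04, with -4.20 and -2.53 without the first and the second MDA-MB-231 N polysomal library) and EGR1 (-1.52 ± 0.54, adjusted p = 0.026) were lower, and the EGR1 call was lost in 2 fits with 1 library left out (edgeR adjusted p of up to 0.206 without the first MDA-MB-231 N polysomal library) and that of ETV5 in 1 (0.0524 without the first MCF10A N polysomal library). The median log2FC of the 10 genes was 1.49 in T and 1.62 in P, against -0.03 and 0.02 over all tested genes.

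**Figure D4:**
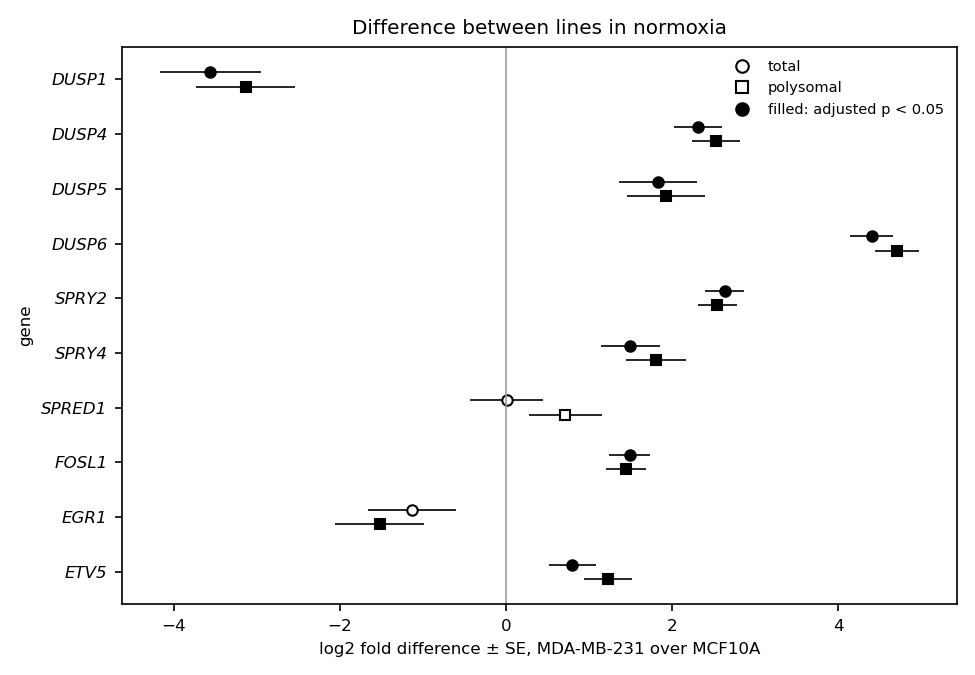
Difference in normoxia between MDA-MB-231 and MCF10A (log2FC ± SE, positive for higher in MDA-MB-231) for each gene, circles for total and squares for polysomal mRNA, filled for an adjusted p under 0.05. DUSP6 lies farthest to the right at 4.40 and 4.71, and DUSP1 farthest to the left at -3.56 and -3.13.

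Whether a treatment acted differently in the 2 lines was tested as an interaction in the joint fit. For HPP, the change of DUSP6 was smaller in MDA-MB-231 than in MCF10A by a log2FC of -1.24 ± 0.32 in T (edgeR adjusted p = 0.034) and -1.53 ± 0.32 in P (adjusted p = 0.0088). That of SPRY2 was smaller by -1.35 ± 0.31 in T (adjusted p = 0.018) and -1.505 ± 0.31 in P (adjusted p = 0.0082). So 2 of 10 genes were called in each fraction, where 1.27% of tested genes in T and 1.44% in P had a lower response in MDA-MB-231. The DUSP6 difference in T was lost with all gene classes (edgeR adjusted p = 0.070) and in 11 of 32 fits with 1 library left out and the other 3 in 2 to 4, and without the second MDA-MB-231 HPP polysomal library 1 of the 4 was left. DUSP5 had an interaction of -1.69 ± 0.64 in T (edgeR adjusted p = 0.18) and -1.74 ± 0.64 in P (adjusted p = 0.15), and DUSP4 of -1.33 ± 0.39 in P (adjusted p = 0.060), which did not pass. The DUSP4 difference passed with the replicate block (adjusted p = 0.030), with DESeq2 (0.0090) and with median-ratio factors (0.046). The HPP change of DUSP1 differed between lines by 0.40 ± 0.78 in T.
In the HPP groups themselves DUSP6 in total mRNA was at 22.6 and 28.98 joint CPM in MCF10A, against 254.6 and 206.8 in MDA-MB-231, so that the line with the lower level in N had the larger fold change and remained the lower one. For H, edgeR called 0 of 10 interactions in T, where 0.266% of tested genes were called, and 0 in P, where 0.329% were, with 0 under an unadjusted p of 0.05 and 0 by DESeq2 in both fractions. For NPP it called 0 in T, where 0.056% were called, and 0 in P, where 0.126% were, with 3 under an unadjusted p of 0.05 in each fraction and 1 call by DESeq2 (DUSP6 in P, log2FC -1.30).

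Polysome association was followed as Te, the log2FC in polysomal minus that in total mRNA, tested in the same fit as an interaction term. The 10 genes had Te from -0.19 to 0.19 in H, -0.22 to 0.57 in NPP and -0.15 to 0.66 in HPP of MCF10A. edgeR called 0 of them, where 0% of tested genes were called in each of H, NPP and HPP, and no gene of the 10 had an unadjusted p under 0.05 or a DESeq2 call. For DUSP5 in HPP, Te was -0.07 ± 0.43, beside rises of 2.29 in T and 2.21 in P, and for SPRY2 it was 0.04 ± 0.36.
In MDA-MB-231, Te ran from -0.25 to 0.12 in H, -0.16 to 0.23 in NPP and -0.20 to 0.26 in HPP, with 0 of 10 called by edgeR, 0 under an unadjusted p of 0.05 and 0 by DESeq2, where 0.0148%, 0.34% and 0.696% of tested genes were called. The SE of Te were 0.36 to 0.83 in MCF10A and 0.18 to 0.84 in MDA-MB-231 in this fit, which does not use the culture shared by a T and a P library. With the culture as a block the SE were 0.34 to 0.84 in MCF10A and 0.18 to 0.24 in MDA-MB-231. Te then ran from -0.20 to 0.93 in MCF10A and from -0.26 to 0.27 in MDA-MB-231, and edgeR again called 0 of 10 genes in H, NPP and HPP of either line, with 0 under an unadjusted p of 0.05. In that fit 0% of tested genes were called in the 3 MCF10A comparisons. For MDA-MB-231 these shares were 0.0148%, 0.0592% and 0.555%.

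In each of the 4 groups of MDA-MB-231, EGR1 was the gene of the 10 whose polysomal level lay farthest below its total level. It was at 21.5 and 28.7 CPM in total and 6.71 and 13.04 in polysomal mRNA of N. In each of the 8 cultures the polysomal level was below the total level of the same culture, which also held for SPRY2 and SPRY4 in that line and for 16.3% of tested genes. DUSP4 was above in all 8, as 13.6% of tested genes were. In NPP the levels were 31.1 and 88.5 CPM in total and 11.4 and 32.7 in polysomal mRNA, so that the culture with the higher total level also had the higher polysomal level. The log2 difference P minus T was -1.33 ± 0.50 in N, -1.49 ± 0.50 in H, -1.44 ± 0.48 in NPP and -1.45 ± 0.48 in HPP. In this fit, which does not use the pairing of T and P libraries by culture, none passed (edgeR adjusted p = 0.090, 0.11, 0.085 and 0.080). Of the 10 genes 0 were called and 1, 2, 1 and 1 had an unadjusted p under 0.05, where 13.1%, 3.57%, 7.34% and 8.42% of tested genes were called in these 4 comparisons, and DESeq2 was not run on them.
With the culture as a block, a fit added after the data were seen, EGR1 passed in all 4 groups of MDA-MB-231. The log2 difference P minus T was then -1.40 ± 0.16 in N (edgeR adjusted p = 2.9e-04), -1.51 ± 0.16 in H (adjusted p = 3.9e-04), -1.44 ± 0.15 in NPP (adjusted p = 2.1e-04) and -1.435 ± 0.15 in HPP (adjusted p = 1.5e-04). It was the only one of the 10 genes called there, where 13.5%, 5.33%, 8.51% and 9.47% of tested genes were called. A count of 1 of 10 is not far from these shares, so it does not set the 10 genes apart. SPRY2 lay just outside in H (-0.51 ± 0.13, adjusted p = 0.051), and SPRY4 was at -0.48 ± 0.16 in NPP (adjusted p = 0.090). With each of the 8 cultures left out in turn, which leaves 1 culture in that group and takes its spread from the other groups, these calls held, with log2 differences from -1.63 to -1.13 and an adjusted p of up to 0.013. In MCF10A polysomal EGR1 was below total in 6 of 8 cultures. The difference there was -0.80 ± 0.46 in N (edgeR adjusted p = 0.50, and 0.58 with culture as a block), where 0% of tested genes were called, and -0.17 ± 0.46 in HPP. Since counts are scaled within a library, these are differences relative to the other mRNAs of the fraction.

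The rest of the pathway was read from 4 lists that do not include the 10 genes. Of 18 genes of the cascade itself (RAS, RAF, MEK, ERK, RSK, their adaptors and NF1), 0 passed in HPP total mRNA of MCF10A by edgeR, where 14.9% of tested genes were called in either direction, with 2 under an unadjusted p of 0.05. In MDA-MB-231 1 of 18 was called, where 13.2% of tested genes were. It was MAP2K1, which encodes MEK1 (log2FC 0.53 ± 0.12, edgeR adjusted p = 0.011). In polysomal mRNA MAP2K1 was the 1 of 18 that rose in each line. It rose by 0.97 ± 0.22 in MCF10A, where 10.2% of tested genes rose, and by 0.53 ± 0.12 in MDA-MB-231, where 9.71% did. The RSK gene RPS6KA1 was the 1 of 18 that fell in MCF10A (-0.87 ± 0.28), where 11.9% of tested genes fell. MAP2K1 also rose in H in MDA-MB-231 (0.76 ± 0.12 in T and 0.60 ± 0.12 in P), where 1.27% and 2.29% of tested genes were called. In NPP edgeR called 0 of 18 in either line or fraction, with 0 at an unadjusted p under 0.05, where 0.648% (T) and 0.823% (P) of tested genes were called in MCF10A and 0.555% and 1.95% in the carcinoma line. DESeq2 was not run on these lists.

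Of 20 other feedback and output genes, 7 rose and 2 fell in HPP total mRNA of MCF10A, where 7.43% of tested genes rose and 7.47% fell, with a median log2FC of 0.50 against -0.01 over all tested genes. SPRY1, a Sprouty gene, was near 0 in N (0.131 and 0.232 CPM, from 5 and 11 counts), at 3.31 and 1.71 CPM in HPP, and at 6.19 and 4.77 CPM in H alone, whereas it stood at 25.2 to 39.8 CPM in all 16 MDA-MB-231 libraries. ERRFI1, which encodes the EGF receptor inhibitor MIG6, went from 101.8 and 86.5 CPM to 486 and 406 in HPP (2.24 ± 0.33, adjusted p = 0.0013) and also rose in H (2.10 ± 0.33, adjusted p = 0.0073). In H 2 of 20 rose in each fraction, where 1.54% (T) and 1.49% (P) of tested genes were called. These counts may include SPRY1 or DUSP9, both near 0 in N. DUSP2, a phosphatase best known from immune cells, was at 1.41 and 1.075 CPM in N and 0.124 and 0.269 in HPP and was called lower. DUSP9, counted among the 7, was at most at 0.671 CPM in MCF10A, with 1 N total library at 0. SPRY1 and DUSP9, both among the 7, had their higher counts in the H and HPP libraries and DUSP2 in N and H, through which they passed the filter, so no fold is given for them and their calls support nothing here. Without these 3 genes, 5 rose and 1 fell.
In MDA-MB-231 2 of 19 tested genes of this list rose in HPP total mRNA, ERRFI1 (1.22 ± 0.33, adjusted p = 0.027) and DUSP10 (0.84 ± 0.19, adjusted p = 0.011), and 2 fell, DUSP7 (-0.85 ± 0.17) and DUSP2 (both adjusted p = 0.0062), so that 4 of 19 were called, where 13.2% of tested genes were. DUSP2 was low in this line too, at 1.33 and 2.39 CPM in N and 0.475 and 0.395 in HPP, and no fold is given for it. DUSP7, a cytoplasmic ERK phosphatase, also fell in NPP (-1.04 ± 0.17, adjusted p = 0.017), where 0.555% of tested genes were called. In NPP polysomal mRNA 2 of 19 fell, where 1.95% of tested genes were called, namely DUSP7 (-1.01 ± 0.18, adjusted p = 0.0058) and CCND1, which encodes cyclin D1 (-0.95 ± 0.21, adjusted p = 0.028). In H 1 of 19 rose in each fraction, where 1.27% (T) and 2.29% (P) were called. It was ERRFI1, which went from 194 and 308 CPM in N to 802 and 861 in H total mRNA (log2FC 1.73 ± 0.34, adjusted p = 0.020), against 660 and 512 in HPP. In polysomal mRNA of HPP, 6 of the list rose and 2 fell in MCF10A, where 10.2% of tested genes rose and 11.9% fell. In N polysomal libraries of MCF10A, SPRY1 had 0 and 11 counts and DUSP9 1 and 6. Any calls of SPRY1, DUSP9 and DUSP2 in these MCF10A counts support nothing here either. In the carcinoma line 2 rose, where 9.71% did, and 3 fell, where 9.73% did. In NPP edgeR called 0 of 20 in MCF10A total mRNA, where 0.648% of tested genes were called, with 10 under an unadjusted p of 0.05, and in polysomal mRNA, where 0.472% rose, 1 did (ERRFI1, 1.72 ± 0.33, adjusted p = 0.032).

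Among 22 tested other immediate early genes, 5 rose and 1 (SRF) fell in HPP total mRNA of MCF10A, where 7.43% of tested genes rose and 7.47% fell. The median log2FC of the 22 was 0.99. The orphan nuclear receptor NR4A1 went from 2.59 and 2.57 to 10.3 and 48.5 CPM (3.51 ± 0.77, edgeR adjusted p = 0.011), a wide HPP pair. The stress-induced factor ATF3 went from 0.836 and 0.611 to 2.04 and 12.5 CPM (3.32 ± 0.92, adjusted p = 0.031). Its HPP pair was wide as well, and the size of both changes rests largely on the second HPP library. KLF6 went from 113 and 98.2 to 556 and 419 CPM (2.21 ± 0.51, adjusted p = 0.014), and FOS from 1.57 and 1.35 to 3.06 and 5.64 (1.58 ± 0.47, adjusted p = 0.044). In MDA-MB-231 6 of 22 rose, where 13.2% of tested genes were called in either direction, among them KLF6 (1.73 ± 0.21, adjusted p = 2.1e-04), ATF3 (1.01 ± 0.27, adjusted p = 0.026) and ZFP36, a regulator of mRNA decay (0.95 ± 0.20, adjusted p = 0.0075). EGR3 was also among the 6 (edgeR adjusted p = 0.036), at 0.538 and 0.284 CPM in N and 2.09 and 0.921 in HPP. Its N levels were near 0, so no fold is given. In polysomal mRNA 11 of the list rose in MCF10A, where 10.2% of tested genes rose, and 6 in the carcinoma line, where 9.71% did. PP242 alone gave 0 of 22 in MCF10A total mRNA by edgeR, where 0.648% of tested genes were called, with 11 under an unadjusted p of 0.05 and a median log2FC of 0.57. In polysomal mRNA, where 0.472% rose, 1 did, the orphan nuclear receptor NR4A2 (edgeR adjusted p = 0.029). NR4A2 went from 0.175 and 0.421 CPM in N to 2.64 and 2.66 in NPP. No fold is given for it, since its N levels were near 0. In MDA-MB-231 NPP gave 0 of 22 in T, where 0.555% of tested genes were called, with 6 under an unadjusted p of 0.05, and 1 rise in P, where 1.95% were called, that of KLF6 (1.25 ± 0.21, adjusted p = 0.0041). Hypoxia alone gave 1 call of 22 in MCF10A, where 1.54% (T) and 1.49% (P) of tested genes were called. It was the AP-1 subunit JUN in both fractions (1.93 ± 0.29 and 2.08 ± 0.29). In MDA-MB-231 H gave 0 of 22 by edgeR, where 1.27% and 2.29% were called, with 5 and 4 under an unadjusted p of 0.05.

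Of the 7 ligands of the EGF receptor, 1 rose in HPP in MCF10A in each fraction, where 7.43% (T) and 10.2% (P) of tested genes did. AREG, which encodes amphiregulin, went from 253 and 186 CPM in N to 1262 and 1401 in HPP total mRNA (log2FC 2.60 ± 0.32, edgeR adjusted p = 4.8e-04) and rose in P by 2.82 ± 0.32 (adjusted p = 2.6e-04). In NPP it was called in polysomal mRNA (1.93 ± 0.31, adjusted p = 0.018), where 0.472% of tested genes rose. In MDA-MB-231 0 of 6 tested ligands passed by edgeR in HPP total mRNA, where 13.2% of tested genes were called, with 1 under an unadjusted p of 0.05, and AREG stood at 26.7 to 55.6 CPM in the 16 libraries. The MCF10A medium contained EGF, so the ligand genes were measured beside added ligand.
The response of these lists to HPP was also compared between lines by the interaction test. Among the feedback and output genes 2 of 20 had a lower response in MDA-MB-231 in T, where 1.27% of tested genes did, and 3 of 20 in P, where 1.44% did. PHLDA1 (-1.48 ± 0.33 in T and -1.94 ± 0.33 in P) was called in both fractions and EPHA2, a receptor tyrosine kinase gene, in P (-1.33 ± 0.36, edgeR adjusted p = 0.045). The other call in each fraction was SPRY1, for which no size is given, because its MCF10A N libraries had at most 11 counts. Without it the counts were 1 in T and 2 in P. AREG was the 1 of 7 ligands with a lower response, by -2.23 ± 0.41 in T and -2.55 ± 0.42 in P (adjusted p = 0.0042 and 0.0013). Of the 23 immediate early genes edgeR called 0 in either fraction, with 6 in T and 7 in P under an unadjusted p of 0.05, and of the 18 cascade genes 0, with 1 and 1.

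**Figure D5:**
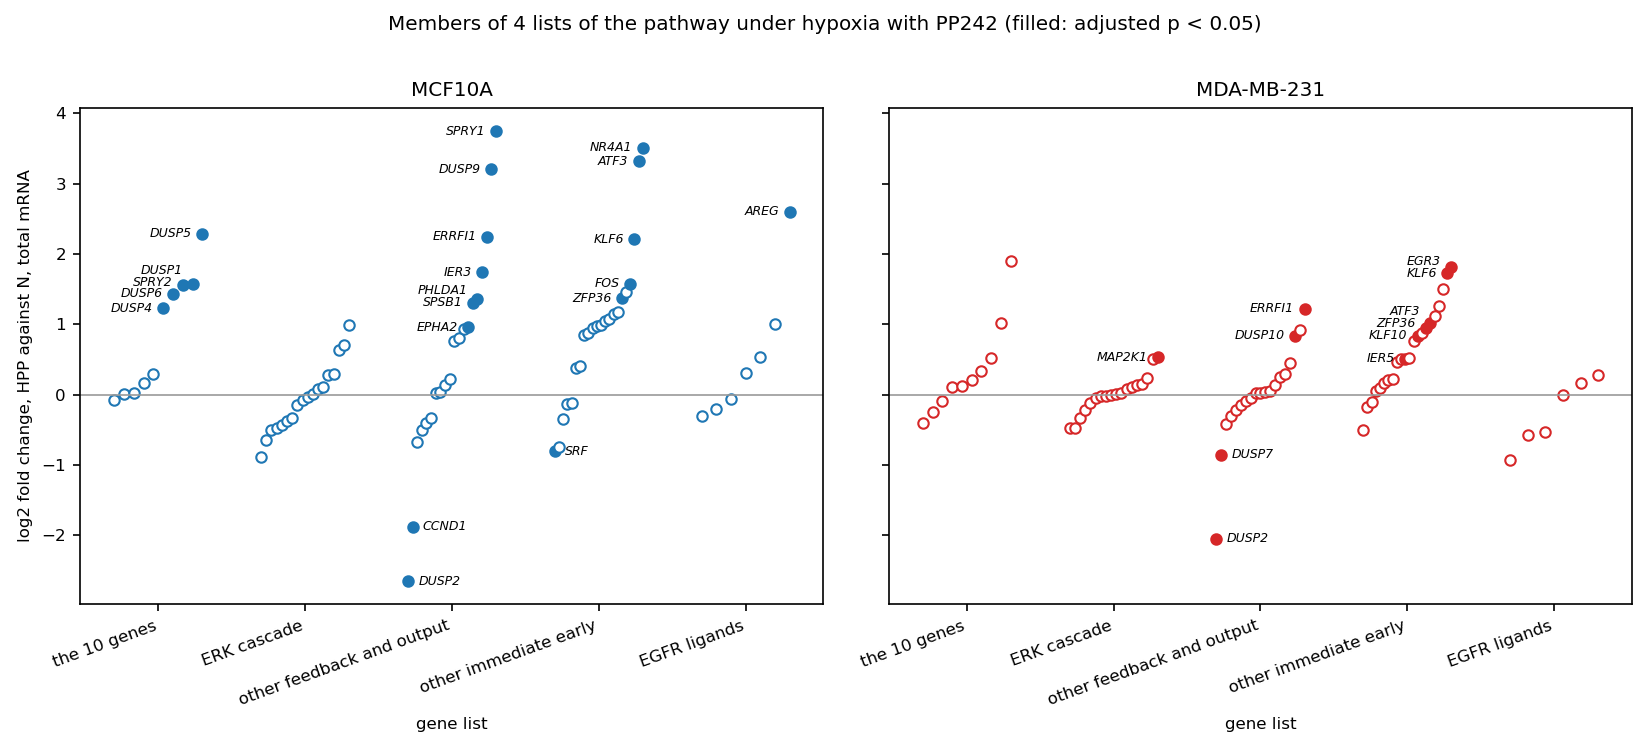
log2FC in HPP against N in total mRNA (vertical axis) for the 10 genes and for the members of 4 other lists of the pathway, in MCF10A (left) and MDA-MB-231 (right), with filled and named points for an adjusted p under 0.05. SPRY1 and DUSP9 had few counts in MCF10A N, so the height of their points there is no measure of size. EGR3 and DUSP2 were at most at 2.09 and 2.39 CPM in MDA-MB-231, and the height of their points there is no measure of size either. Calls lie in the feedback and immediate early lists of both lines, and the cascade list has 1 named point, MAP2K1 in MDA-MB-231.

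In normoxia the other feedback and output genes differed as well, with 10 of 20 higher in MDA-MB-231, where 20.3% of tested genes were, and 2 lower, where 20.5% were, in total mRNA (median log2FC 0.84). SPRY1 was among the 10 higher ones, with 1109 and 495 counts in MDA-MB-231 N total libraries against 5 and 11 in MCF10A. No fold is given for it, and its call supports nothing here. The ETS genes ETV1 (3.55 ± 0.44) and ETV4 (1.24 ± 0.30) were higher beside ETV5. Of the 23 other immediate early genes 10 were higher and 4 lower in total mRNA (median log2FC 0.46). FOSB (2.55 ± 0.49) and ATF3 (3.17 ± 0.73) were among the higher ones, and the 4 lower ones were BTG2, an inhibitor of cell proliferation (3 and 3 counts against 548 and 901 in MCF10A, with no fold given), JUNB (-2.11 ± 0.31), ZFP36 (-1.95 ± 0.26) and KLF10 (-1.75 ± 0.24). Among the cascade genes KSR1, which encodes a scaffold, was one of those that were higher (3.43 ± 0.49), and SHC1 (-2.40 ± 0.28) and MAP2K1 (-0.53 ± 0.17) were lower. Among the ligands, HBEGF (3.49 ± 0.35) and TGFA (3.41 ± 0.49) were higher, and AREG (-3.33 ± 0.32) and BTC (-1.88 ± 0.36) lower. EPGN was also called lower, at 1 and 2 counts against 155 and 127, and no fold is given for it. The calls of EPGN and of BTG2, which is among the 4 lower immediate early genes, support nothing here either.

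The 10 genes did not move as 1 block. Over the 32 libraries, centred within line and fraction, Pearson's r of log2 CPM for the 45 pairs ran from -0.541 (DUSP1 and FOSL1) to 0.872 (DUSP4 and DUSP6), with a median of 0.35. DUSP6 and SPRY2 (0.857) and EGR1 and ETV5 (0.833) were also close. These values describe libraries that share cultures, treatments and scaling. Among genes outside the 10 that were tested in both lines, those most like DUSP6 were EVI2B (r = 0.936), ATP6V1B2 (0.930) and CD55 (0.929). Those most like EGR1 were KIF20A (0.866), RACGAP1 (0.823) and TTK (0.823), and those most like FOSL1 were MED31 (0.779), TAF11 (0.779) and LYPLA2 (0.771).

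Rows with related names were not counted as members. The pseudogene DUSP5P1 had 0.747% to 13.7% of the counts of DUSP5 in the 8 MCF10A libraries without PP242 (median 3.26%), 0.266% to 3.19% in the 8 with PP242, and at most 0.960% in MDA-MB-231. In total mRNA of MCF10A it had 23 and 22 counts in N and 62 and 20 in HPP, against 641 and 829 for DUSP5 in N and 1941 and 3190 in HPP, so that the rise of DUSP5 exceeded all counts of the pseudogene. SPRY4-IT1 (ENSG00000281881.1) had 0 to 17 counts, the antisense gene ETV5-AS1 0 to 5 and FOSL1P1 0 or 1. The libraries are not stated to keep strand, so reads of ETV5 and its antisense partner cannot be told apart, and reads shared by DUSP5 and its pseudogene were divided by RSEM.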

How the data were processed

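The authors mapped reads with STAR 2.5.1b to GRCh38 and GENCODE 24 and ran RSEM 1.2.28 for the expected counts of each gene according to the methods, whereas the submitters' processing notes name GRCh37. The deposited expected counts are whole numbers, not normalised, and 97.39% to 99.18% of them fall in protein-coding genes. Coordinates and exon lengths came from GENCODE v44 on GRCh38.

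Counts of protein-coding genes were filtered (filterByExpr), scaled by TMM and tested with edgeR 4.0.16 quasi-likelihood F tests in R 4.3.3 (limma 3.58.1). The 16 libraries of a line in 8 groups shared 1 fit (8 residual degrees of freedom), and line differences came from 1 fit of 32 libraries (16). Adjusted p are Benjamini-Hochberg over all genes tested in the comparison, with a threshold of 0.05. The SE was derived from the log2FC and its F value. Replicates are labelled biological, and no further statement on their independence was found. All 10 genes were counted in every comparison, and those called or nearest to a call were given with values. From each pathway list up to 4 called genes with the largest change in HPP total mRNA of a line were named with values, and other called genes were named after their values were seen. The line difference of the cascade list is not reported here in full. The members and lists were chosen with earlier results of these data known. Scripts were tested on simulated data. Replicates varied more in MCF10A (BCV 0.325) than in MDA-MB-231 (BCV 0.150, the biological coefficient of variation fitted by edgeR), so that a change of a given size was harder to detect in MCF10A, and a gene not called there is not shown to be unchanged.

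Alternatives were DESeq2 1.42.0, no filter beyond 1 read, median-ratio factors, a replicate block, all gene classes, a threshold of 0.10, only the libraries compared, and each library left out, in which the lone library left in its group is assumed to vary like the other groups. A block within each fraction, removal of both second MCF10A NPP libraries and a culture block for P minus T were added after seeing the data. Shares of all tested genes called are from the main fit, apart from those given with the culture as a block.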

Additional observations from a re-analysis of the deposited data

Results flagged for a closer look

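The response to hypoxia with PP242 differed between lines for 2 genes in each fraction, by the interaction test in the joint fit. For DUSP6 the log2FC in MDA-MB-231 minus that in MCF10A was -1.24 in total mRNA (edgeR adjusted p = 0.034) and -1.53 in polysomal mRNA (adjusted p = 0.0088), beside within-line log2FC of 0.11 (MDA-MB-231) and 1.43 (MCF10A) in total mRNA, then 0.11 and 1.61 in the polysomal fraction. For SPRY2 it was -1.35 in total mRNA (adjusted p = 0.018) and -1.505 in polysomal mRNA (adjusted p = 0.0082), beside within-line log2FC of 0.12 and 1.56 in total mRNA, then 0.11 and 1.60 in the polysomal fraction. The DUSP6 call in total mRNA was lost with all gene classes (adjusted p = 0.070) and in 11 of 32 fits with 1 library left out. The T and P libraries of a replicate share a title number and were taken as 1 culture. Cell line and medium, which contained EGF only for MCF10A, cannot be told apart.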

How the results depend on the processing

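Of 441 values of single called genes under an alternative, 378 kept direction and side of the threshold. Another 63 kept direction and lost the call, and 0 changed direction. The share of calls kept is not a measure of robustness. It includes the looser threshold on adjusted p, under which a call cannot be lost. It also holds only part of the fits with a library left out. In MCF10A such fits lost the call of DUSP5 in HPP total mRNA in 0 of 16. They lost that of DUSP1 for HPP against H in P in 13 of 16. The counts of genes called between lines in normoxia (8 in T, 9 in P) and in HPP of MCF10A polysomal mRNA (5) changed by less than 1.5 times under each alternative run, although the size of the DUSP1 line difference moved with the MDA-MB-231 library left out (-4.59 to -2.97 in T).

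In MCF10A, the 3 calls in NPP polysomal mRNA became 0 without both second NPP libraries, 0 with only the libraries compared and 1 with median-ratio factors. The 2 calls in NPP total mRNA became 0, 0 and, with DESeq2, 4. The 4 calls of HPP against H in P became 7 with DESeq2. No share over all tested genes is given for DESeq2 or for the block within each fraction, so these larger counts cannot be set beside one. With 1 library left out, calls ranged from 2 to 5 for HPP in T (2 without either N total library), 2 to 6 for HPP against H in P (2 without either H polysomal library or the second HPP one), 0 to 4 for HPP against H in T (0 without either H total library or the second HPP one), 0 to 3 for NPP in T and 0 to 4 for NPP in P.
In MDA-MB-231, calling was marginal. With no filter beyond 1 read, calls were 1 in H in T and 1 in P, 2 in NPP T, 4 in NPP P, 3 in HPP T, 4 in HPP P, 2 and 4 for HPP against H in T and P, and 1 and 1 for HPP against NPP. The share of all genes called without the filter is not given, so these counts cannot be set beside it. HPP in P (2 calls) gave 1 with all gene classes, 1 with DESeq2 and 0 with median-ratio factors, and HPP against H in P (2 calls) gave 1 with median-ratio factors. HPP in T and HPP against H in T (0 calls) each gave 1 at an adjusted p under 0.10 and 1 with DESeq2, and HPP in T gave 2 with only the libraries compared. With 1 library left out, HPP and HPP against H gave 0 to 1 calls in T and 0 to 2 in P (0 without the first HPP polysomal library in both, and for HPP also without the second HPP or the second N one).
Among line differences in response to HPP (4 over both fractions), leaving out 1 library gave 1 (without the second MDA-MB-231 HPP polysomal library) to 5, and for NPP (0) DESeq2 gave 1. DUSP4 in P was gained with DESeq2, with median-ratio factors and with the replicate block. The causes were not tested.

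Replicate numbers paired the libraries of MCF10A total mRNA, where same-numbered deviations correlated over 0.1 in 6 of 6 pairs of groups (0.283 to 0.778), but not those of other sets. In MCF10A polysomal mRNA 3 of 6 pairs did, and over both fractions 11 of 28 pairs of MCF10A groups (-0.641 to 0.778) and 19 of 28 in MDA-MB-231 (-0.187 to 0.348). With a replicate block over the line, calls went from 3 to 1 in MCF10A NPP P, and from 0 to 1 in MDA-MB-231 HPP T, HPP against H in T, HPP against NPP in P and NPP P. With a replicate block within each fraction they went from 4 to 7 for MCF10A HPP against H in P and from 3 to 5 in NPP P, with a gain of 1 in each of those 4 MDA-MB-231 comparisons. In MCF10A total mRNA it added DUSP6 in NPP and DUSP1 for HPP against H, and 5 genes were called in HPP. A replicate block over the line lost the normoxic line difference of ETV5 in total mRNA (log2FC 0.78, edgeR adjusted p = 0.0582). T and P libraries with the same title number deviated together (over 0.1) in 1 of 4 MCF10A groups (-0.25 to 0.214) and 3 of 4 MDA-MB-231 groups (0.00239 to 0.348). With the culture as a replicate block, P minus T of EGR1 in MDA-MB-231 went from not called to called in all 4 groups. Among the genes described here, the culture block changed no other count of calls by over 1.5 times. Over all tested genes, the share called for Te in NPP of MDA-MB-231 went from 0.34% to 0.0592% with this block.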
